A study of Homo sapiens with 24 samples.

Results

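The colorectal cancer lines HCT15 and HT115 were set side by side for what distinguishes them as cells before any induction is considered. The members were the arrays whose titles name HCT15 with the residue number of MLK4 Y330H, or HT115 with that of MLK4 E314K, and carry no Tet tag, 3 arrays a line. That is 6 of the 24 arrays of the series. In the study, each line was engineered so that tetracycline induces MLK4 (gene symbol MAP3K21, a mixed-lineage kinase upstream of JNK), in its normal form (WT) or a mutated one. Per the labels both parent lines already carry loss-of-function mutations of MLK4, and the mutant forms served as the control of the study. The HCT15 group used here holds inducible Y330H, the HT115 group holds inducible E314K, and both were grown in RPMI with serum, antibiotics and glutamine. The labels do not say what the arrays without the tag received, and they are called untagged below. The matching Tet arrays, 3 a line, had 24 h of tetracycline.

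Each group is 1 engineered derivative of its line, and the labels do not say whether a derivative is a clone or a pool. Line and introduced MLK4 form change together here, so that the effect of the line and that of the form cannot be told apart in these arrays alone. The 3 untagged arrays of HCT15 with inducible WT MLK4, which lie on the same signal scale, are therefore given beside results as a further HCT15 derivative. The HT115 WT arrays lie on another scale and were not used here. The labels leave unsaid whether the 3 replicates of a group were grown as separate cultures. Each p-value therefore reflects the spread among these arrays alone, which may be technical.

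The normal colon lining is renewed from stem cells at the crypt base, which depend on Wnt signalling and carry markers such as LGR5. Their offspring become absorptive colonocytes, mucus-producing goblet cells or hormone-producing enteroendocrine cells, under transcription factors that include the CDX, HNF4, FOXA and KLF families. Colorectal cancer lines keep different parts of this programme, and they also differ in the junctions that hold epithelial cells together and in their metabolism.

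Values are RMA log2 signals from Affymetrix U133 Plus 2.0 arrays, 1 probe set per gene, and 18991 autosomal genes were tested. The array medians of the series ran from 6.38 to 6.48 in 18 arrays and from 5.55 to 5.61 in the 6 HT115 WT arrays. The lowest correlation between arrays of a group was 0.987 in each line. RNA integrity was read from the 3' minus 5' control signal of ACTB. It averaged 0.429 ± 0.027 (SD, n = 3) in HCT15 Y330H and 0.355 ± 0.052 in HT115 E314K. In the HCT15 WT arrays used beside them it averaged 0.728 ± 0.388 and ran from 0.482 to 1.175. The part of RNA integrity in the results was not tested. The number of arrays, 3 a group, limits the precision of every value. Detection calls were not used here, so a low signal cannot be told from background, and a fold against such a level may understate the difference.

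Both lines carried general markers of epithelial cells. EPCAM, the adhesion molecule used to identify carcinoma cells, read 12.56, 12.74 and 12.57 in the HCT15 arrays and 12.57, 12.69 and 12.59 in the HT115 arrays. Its levels overlapped, with a difference of 0.01 ± 0.12 (SE). KRT8 and KRT18, the paired keratins of simple epithelia, had means of 12.59 and 13.33 in HCT15 and of 12.75 and 13.44 in HT115, and neither passed the test. KRT19 had means of 13.22 and 12.87 (adjusted p = 0.0697). Several markers of intestinal epithelium, described below, differed between the lines. As HCT15 minus HT115, KRT20 differed by -5.41, LGALS4 by -6.78, GPA33 by -5.47 and VIL1 by -1.82, and CDH17 was also lower in HCT15. CDX2 differed by -0.86, and CDH1, which is E-cadherin, by 2.54. Of 28 fibroblast, leukocyte and endothelial markers, 1 was called by the rule given below, which called 10.5% of all genes. Mean levels of the 28 ran from 3.00 to 7.33 in HCT15 and from 3.13 to 7.08 in HT115. The called gene was CD14, the lipopolysaccharide co-receptor, at 7.61, 7.21 and 7.19 in HCT15 and 4.98, 5.79 and 5.45 in HT115. MAP3K21 itself read 10.43, 10.85 and 10.69 in HCT15 and 10.68, 10.84 and 10.48 in HT115, with overlapping levels and a difference of -0.01 ± 0.15. One probe set represents it, and its position in the transcript against the introduced form was not examined here.

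A gene was called when its Benjamini-Hochberg adjusted p in the limma fit was under 0.05 and its groups differed at least 2-fold, which is 1 on the log2 scale. Differences are HCT15 minus HT115, so a negative value marks a gene that was higher in HT115. An adjusted p under 0.05 alone was reached by 26.2% of genes, and the 3 arrays of one line lay wholly above or below those of the other for 40.7%. With both conditions 1985 genes differed, 10.5% of those tested, with 945 higher in HCT15 (4.98%) and 1040 higher in HT115 (5.48%). The median difference of all genes was 0.058. Differences reached further on the HT115 side. Of the genes higher in HT115, 122 differed at least 16-fold and 30 at least 64-fold, against 22 and 3 of those higher in HCT15. The scatter of mean levels in both lines shows this as a cloud of points far below the diagonal.

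**Figure D1:**
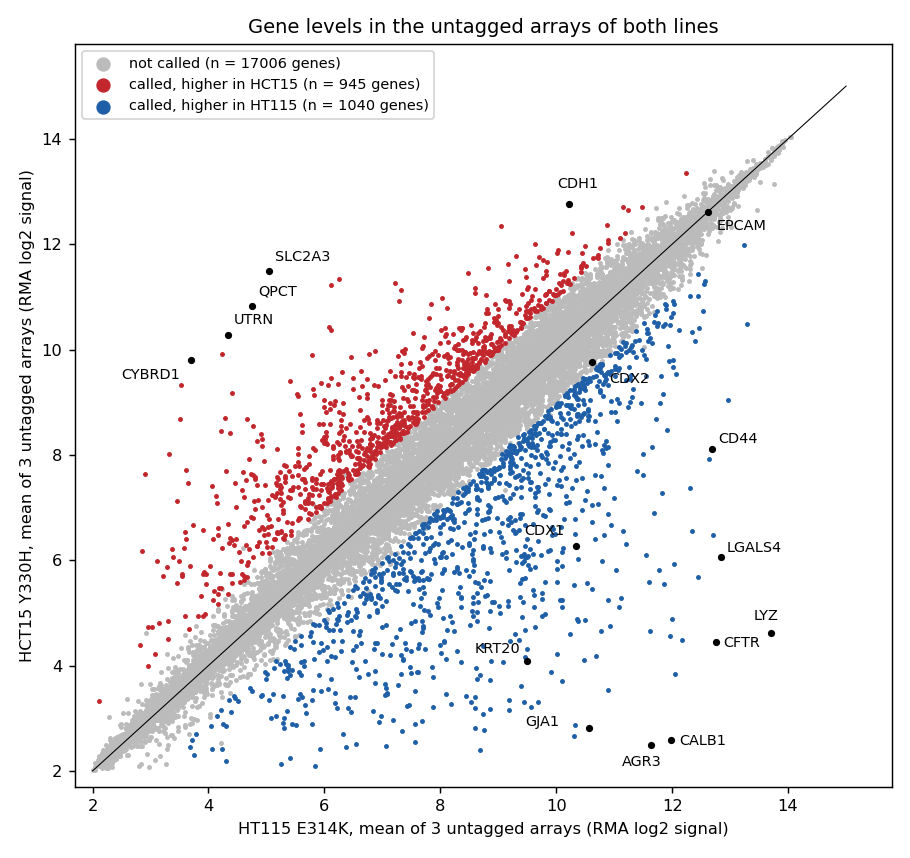
Mean RMA log2 signal of each of the 18991 genes in HT115 E314K (horizontal) and HCT15 Y330H (vertical), 3 untagged arrays each, with the diagonal marking equal levels. Called genes are red (945, higher in HCT15) or blue (1040, higher in HT115), and the blue points reach farther from the diagonal, with CALB1, AGR3 and LYZ at the far end and EPCAM on the line.

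The 15 largest differences toward HT115 included several genes known from secretory or absorptive epithelium. CALB1, the calcium buffer calbindin, read 2.58, 2.53 and 2.67 in HCT15 and 11.81, 12.07 and 12.05 in HT115, a difference of -9.39 ± 0.12 (670-fold, adjusted p = 2.32e-09). AGR3, a disulfide isomerase relative of secretory cells, read 2.49, 2.52 and 2.47 against 11.72, 11.77 and 11.42, a difference of -9.14 ± 0.13. LYZ, the antibacterial lysozyme that Paneth cells secrete, read 4.60, 4.60 and 4.66 against 13.62, 13.80 and 13.67, a difference of -9.07 ± 0.11. All 3 genes sat among the lower signals in HCT15 and among the high ones in HT115, with no overlap. CFTR, the chloride channel of crypt epithelium, read 4.42, 4.64 and 4.28 against 12.72, 12.91 and 12.66 (-8.32 ± 0.14), and all 6 of its probe sets were at least 2-fold higher in HT115. TM4SF4, a tetraspanin-like membrane protein, read 3.88, 3.54 and 4.13 against 11.82, 12.07 and 12.27 (-8.20 ± 0.18). The HT115 arrays were high and the HCT15 arrays low throughout for both. Further in this group were MTERF1, which acts in mitochondrial transcription (-7.46), PPP1R1B, a phosphatase inhibitor (-7.09), and PF4, a chemokine better known from platelets (-6.76). ELOVL5, a fatty acid elongase, differed by -7.35 on its brightest probe set, but only 1 of its 4 probe sets passed 2-fold, and the probe set nearest to 0 differed by -0.33.

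The 15 largest differences toward HCT15 included 3 sugar or monocarboxylate transporter family genes and none of the differentiation list members. SLC2A3, the high-affinity glucose transporter GLUT3, read 11.41, 11.60 and 11.46 in HCT15 and 5.67, 4.76 and 4.67 in HT115, a difference of 6.45 ± 0.25 (87.7-fold, adjusted p = 4.62e-07). CYBRD1, a ferric reductase that serves iron uptake in the gut, read 10.13, 9.38 and 9.89 against 4.24, 3.38 and 3.48 (6.10 ± 0.26). QPCT, which forms pyroglutamate at the ends of peptides, read 11.14, 10.71 and 10.61 against 4.83, 4.5 and 4.96 (6.06 ± 0.18). The HCT15 arrays were the high ones for all 3, without overlap. UTRN, the dystrophin relative utrophin, read 9.92, 10.40 and 10.52 against 4.53, 4.60 and 3.86 (5.95 ± 0.23). NLRP2, a NOD-like receptor, read 9.56, 10.13 and 10.04 against 4.18, 4.28 and 4.26 (5.67 ± 0.16). ZFP57, a zinc finger protein that guards imprinted methylation, read 10.79, 9.97 and 10.37 against 6.29, 6.02 and 6.05 (4.26 ± 0.20). Each of the 3 was high in every HCT15 array and low in every HT115 array. SLC16A14, a monocarboxylate transporter family member (5.78), FAM171B (5.11), the long noncoding RNA AFAP1-AS1 (5.09), LRRN1 (4.72), the glucose transporter SLC2A10 (4.69) and the zinc finger gene ZNF544 (4.34) were also among these 15. DUXAP10, a pseudogene, differed by 4.43 on 1 of its 2 probe sets and by 0.03 on the other.

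OLR1, a scavenger receptor for oxidised lipoprotein, and TMEM52B overlap each other on chromosome 12 and varied together among HCT15 arrays. OLR1 read 10.91, 8.58 and 8.02 in HCT15 and 4.08, 4.08 and 5.07 in HT115, a difference of 4.76 ± 0.66 that was 3.89 without the first HCT15 array. TMEM52B read 10.31, 7.73 and 7.99 against 3.24, 3.75 and 3.54, a difference of 5.17 ± 0.58 that was 4.35 without that array. The first HCT15 array stood above the other 2 for both genes, and no HCT15 array reached the HT115 levels.

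Genes of absorptive enterocytes and colonocytes were mostly higher in HT115 where they differed. Of 34 measured, 14 were called higher in HT115 and 1 higher in HCT15, which is 44.1% of the list against 10.5% of all genes. Their median difference was -0.38 against 0.058 over all genes. LGALS4, the galectin that sorts proteins to the brush border, read 6.39, 5.38 and 6.4 in HCT15 and 12.89, 12.69 and 12.93 in HT115 (-6.78 ± 0.26, 110-fold). GPA33, the A33 antigen of intestinal epithelium, read 4.63, 5.09 and 4.94 against 10.35, 10.33 and 10.40 (-5.47 ± 0.14). KRT20, the keratin of mature colonocytes, read 4.06, 3.95 and 4.25 against 10.00, 9.14 and 9.34 (-5.41 ± 0.22). HT115 was the high line for all 3 and the groups lay far apart. USH1C, which links microvilli at their tips, read 5.03, 5.30 and 5.39 against 10.26, 10.00 and 10.03 (-4.86 ± 0.14). CEACAM5, the carcinoembryonic antigen, differed by -5.80 on its brightest probe set and by -0.04 on the other, and CEACAM genes are near copies of each other, so its value is uncertain. DPP4, a brush border peptidase (-2.82), SLC26A3, the chloride-bicarbonate exchanger of the colon surface (-2.17), and FABP1, the liver-type fatty acid binding protein (-2.01), were also called higher in HT115.

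The exception in that list was CA2, a carbonic anhydrase of absorptive cells. It read 8.48, 8.87 and 7.84 in HCT15 and 6.88, 6.91 and 7.46 in HT115, a difference of 1.31 ± 0.26 (adjusted p = 0.00666). The HCT15 arrays were higher and did not overlap with those of HT115. VIL1, the actin bundler villin, read 10.20, 8.47 and 9.68 against 11.37, 11.30 and 11.13, a difference of -1.82 ± 0.37 (adjusted p = 0.00715), which lost its call in a fit of all 18 arrays on the shared scale (adjusted p = 0.0814). HT115 was higher in each array, and the HCT15 arrays were spread out. Of the 19 members that were not called, 4 are markers of the mature surface colonocyte. Their means in HCT15 and HT115 were 6.28 and 6.32 for GUCA2A, 6.15 and 6.06 for AQP8, 7.05 and 6.84 for CA4 and 3.43 and 3.21 for MS4A12.

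Among 27 goblet cell and mucin genes, 9 were called higher in HT115 (33.3%) and none higher in HCT15. Over all genes 5.48% were called higher in HT115 and 4.98% higher in HCT15. The median difference was -0.09. MUC12, a membrane mucin of the colon, read 4.18, 4.46 and 4.80 in HCT15 and 12.49, 12.24 and 11.79 in HT115 (-7.69 ± 0.21). REG4, a secreted lectin of goblet and enteroendocrine cells, read 5.38, 3.90 and 4.43 against 11.93, 11.79 and 12.16 (-7.39 ± 0.32). MUC13, a further membrane mucin, read 7.50, 6.87 and 7.75 against 12.32, 12.25 and 12.35 (-4.93 ± 0.21). In all 3 the HT115 arrays were the high ones, with no overlap. AGR2, a disulfide isomerase needed for mucin folding, read 11.49, 9.23 and 10.71 against 13.32, 13.26 and 13.28, a difference of -2.81 ± 0.47 that was -2.19 without the second HCT15 array. MUC3A (-2.54), the sialyltransferase ST6GALNAC1 (-2.60) and the trefoil peptide TFF3 (-1.19) were called as well. MUC2, the main gel-forming mucin, read 5.25, 5.04 and 5.30 against 6.45, 6.01 and 6.57, a difference of -1.15 ± 0.17 that fell under 2-fold with array weights (-0.96). The secretory regulators did not differ detectably. ATOH1, which commits cells to the secretory fate, had means of 5.18 and 5.04, and SPDEF, which matures goblet cells, had means of 8.05 and 8.04.

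Enteroendocrine, tuft and Paneth genes gave 3 calls among 27, or 11.1%, near the background share. LYZ is given above. ISL1, a transcription factor of hormone cells, read 6.13, 6.28 and 5.95 in HCT15 and 8.28, 8.19 and 8.17 in HT115 (-2.09 ± 0.13). SCG5, a secretory granule chaperone, read 10.45, 8.52 and 10.06 against 7.54, 7.65 and 7.85 (2.00 ± 0.42), but with the HCT15 WT arrays in place of Y330H its difference turned to -0.85. The Paneth defensins DEFA5 and DEFA6 had means of 5.26 and 4.89 in HCT15 and 4.99 and 4.85 in HT115, and chromogranin A (CHGA) had means of 4.87 and 5.06.

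**Figure D2:**
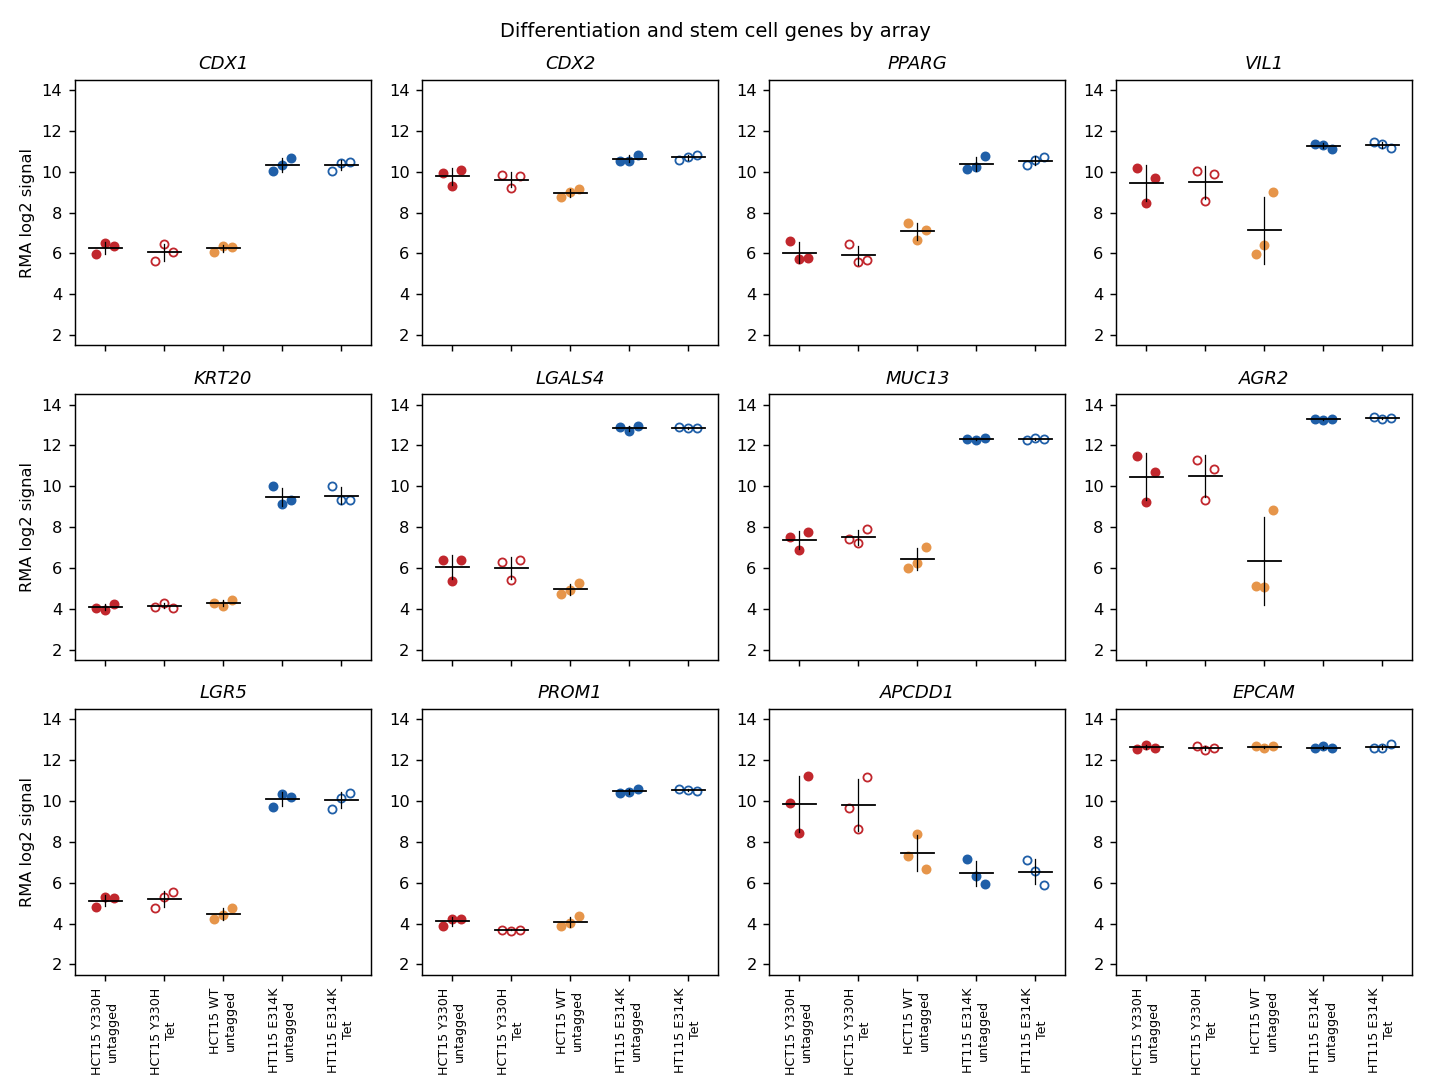
RMA log2 signal by array for 12 differentiation and stem cell genes in HCT15 Y330H (red), HCT15 WT (orange) and HT115 E314K (blue), with filled points for untagged and open points for Tet arrays. Black bars give the mean and SD of 3 arrays. CDX1, PPARG, KRT20, LGALS4, MUC13, LGR5 and PROM1 separate the lines in every group shown, EPCAM does not, and VIL1, AGR2 and APCDD1 vary between HCT15 arrays.

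Intestinal and epithelial transcription factors that differed were mostly higher in HT115. Of 40 listed genes 31 were analysed. Of these, 14 were called higher in HT115 and 1 higher in HCT15, or 48.4% against 10.5% of all genes. The median difference was -0.80. When the test itself demanded more than 2-fold (limma's treat), 6 of the 31 were called. CDX1, a homeobox factor of the intestinal identity, read 5.96, 6.49 and 6.36 in HCT15 and 10.01, 10.33 and 10.69 in HT115 (-4.07 ± 0.20, 16.8-fold, adjusted p = 2.1e-06). CDX2, its relative and the standard marker of intestinal origin, read 9.92, 9.30 and 10.08 against 10.54, 10.51 and 10.83, a difference of -0.86 ± 0.21 (adjusted p = 0.0154) that stayed under 2-fold. Both were higher in HT115 without overlap, and CDX2 was among the higher signals in both lines.

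PPARG, a fatty acid receptor of colonocytes, read 6.62, 5.72 and 5.77 in HCT15 and 10.11, 10.23 and 10.78 in HT115 (-4.34 ± 0.27). MECOM, a zinc finger factor, read 6.85, 8.11 and 8.12 against 11.26, 11.59 and 11.34 (-3.70 ± 0.32). FOXA2, a pioneer factor of endoderm, read 5.39, 5.63 and 5.70 against 8.18, 8.59 and 9.18 (-3.08 ± 0.23). These were separated in every array. HNF4G, a nuclear receptor of the brush border programme, read 7.04, 6.64 and 6.86 against 9.69, 9.92 and 9.82 (-2.97 ± 0.14). ESRP1, a splicing regulator of epithelial cells kept in this list, differed by -2.21, the ETS factor ELF3 by -2.12, the vitamin D receptor VDR by -1.43, the ETS factor EHF by -1.40, and KLF4 of differentiated surface cells by -1.05. GRHL3, a barrier factor, was the single member higher in HCT15, at 5.74, 6.58 and 6.44 against 5.26, 5.10 and 4.66 (1.25 ± 0.24). Of the 15 calls of this list, 14 were also made in the Tet arrays, and GRHL3 was not among them. FOXA1 (means 7.24 and 7.23), GATA4 (7.77 and 7.76) and KLF5 (11.65 and 11.57) did not pass the test.

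The promoters of 4 genes higher in HT115 are shown because their letters hold a motif of the intestinal factors described above. Windows from 250 bases before to 50 bases after the start site came from RefSeq (GRCh38.p14) and were found for 14765 of the 18991 genes. The 250 bases before the start are printed 5' to 3' on the gene's strand. In REG4 (chr1:119811461-119811710, minus strand) capitals mark the letters AGATAAG of GATA factors and TTTATGG of CDX factors. In TM4SF4 (chr3:149474447-149474696, plus strand) they mark TTTATGG. In MUC13 (chr3:124934752-124935001, minus strand) they mark CAAAGTC of HNF4, on the reverse strand. In GPA33 (chr1:167090378-167090627, minus strand) they mark CAAAGTC and CAGGTG, the E-box of ZEB and SNAIL factors, both on the reverse strand.
REG4: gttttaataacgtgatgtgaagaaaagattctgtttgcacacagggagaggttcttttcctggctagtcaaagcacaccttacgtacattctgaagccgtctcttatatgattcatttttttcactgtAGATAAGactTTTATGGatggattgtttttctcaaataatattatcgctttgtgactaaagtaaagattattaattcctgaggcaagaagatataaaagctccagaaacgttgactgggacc
TM4SF4: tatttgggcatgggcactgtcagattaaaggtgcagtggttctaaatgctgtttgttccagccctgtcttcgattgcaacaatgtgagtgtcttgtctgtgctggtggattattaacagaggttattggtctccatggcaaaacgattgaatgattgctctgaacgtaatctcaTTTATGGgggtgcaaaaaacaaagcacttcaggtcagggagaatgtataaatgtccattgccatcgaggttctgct
MUC13: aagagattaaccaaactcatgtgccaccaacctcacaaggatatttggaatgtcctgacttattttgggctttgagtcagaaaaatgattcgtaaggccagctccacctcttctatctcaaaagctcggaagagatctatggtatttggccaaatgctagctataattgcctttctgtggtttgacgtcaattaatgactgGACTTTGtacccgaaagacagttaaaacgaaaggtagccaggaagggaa
GPA33: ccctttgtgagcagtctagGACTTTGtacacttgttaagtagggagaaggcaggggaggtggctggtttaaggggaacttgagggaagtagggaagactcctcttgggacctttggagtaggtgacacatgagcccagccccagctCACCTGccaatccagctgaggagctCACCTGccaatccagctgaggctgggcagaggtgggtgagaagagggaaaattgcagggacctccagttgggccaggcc

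These matches are descriptions of letters and not binding sites. Windows of some named genes higher in HCT15 held such letters as well. GSTM3 had 2 CDX matches and 1 GATA match, and HOXD8 had 1 CDX match. SLC16A14 and TDRD1 had 1 HNF4 match each. Searched on both strands of the 300-base windows, the CDX letters occurred in 2.03% of all windows and in 4.10% of the 366 windows of genes at least 4-fold higher in HT115. The HNF4 letters occurred in 2.75% and 3.83%, the GATA letters in 2.07% and 3.55%, and the E-box in 19.6% and 21.9%. The TCF/LEF letters CTTTGAT, which share 5 bases with the HNF4 letters on the opposite strand, occurred in 1.88% and 2.46%. In the 176 windows of genes at least 4-fold higher in HCT15 the shares were 1.7% for CDX, 1.7% for HNF4, 2.27% for GATA, 18.2% for the E-box and 3.41% for TCF/LEF. No test was made of any of these shares.

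CpG content of the windows also differed between the directions. CpG observed over expected is the number of CG pairs against what the C and G content alone would give. Its median was 0.77 over all windows, 0.59 for genes at least 4-fold higher in HT115 and 0.80 for those at least 4-fold higher in HCT15. It was under 0.5 in 28.6%, 44.3% and 22.7% of these windows. LGALS4 (chr19:38812946-38813195, minus strand) and UTRN (chr6:144285085-144285334, plus strand) are printed as 1 gene higher in HT115 with few CG pairs and 1 gene higher in HCT15 whose value lies near the median of all windows, with each CG in capitals.
LGALS4: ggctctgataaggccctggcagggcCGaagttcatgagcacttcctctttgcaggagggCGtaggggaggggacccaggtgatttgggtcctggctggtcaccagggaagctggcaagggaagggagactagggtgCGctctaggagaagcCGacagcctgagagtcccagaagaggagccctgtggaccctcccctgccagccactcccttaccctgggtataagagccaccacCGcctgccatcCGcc
UTRN: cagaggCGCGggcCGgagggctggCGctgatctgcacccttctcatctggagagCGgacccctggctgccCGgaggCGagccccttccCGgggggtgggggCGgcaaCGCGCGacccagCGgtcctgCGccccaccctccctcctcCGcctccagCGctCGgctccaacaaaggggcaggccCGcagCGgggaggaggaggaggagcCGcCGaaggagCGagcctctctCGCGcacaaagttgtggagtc
The printed LGALS4 stretch holds 6 CG pairs (observed over expected 0.24), and that of UTRN holds 24 (0.72). DNA methylation was not measured in this series.

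Wnt target and crypt stem cell genes split between the lines. Of 23 measured, 4 were called higher in HCT15 and 6 higher in HT115, which is 43.5% against 10.5% of all genes. The median difference was 0.49. PROM1 (CD133, a stem cell surface protein) read 3.86, 4.21 and 4.25 in HCT15 and 10.40, 10.43 and 10.61 in HT115 (-6.37 ± 0.14). LRIG1, a brake on ERBB receptors in stem cells, read 5.25, 5.52 and 5.07 against 10.81, 11.24 and 11.28 (-5.83 ± 0.17), with 3 of 4 probe sets past 2-fold. LGR5, the R-spondin receptor, read 4.81, 5.29 and 5.27 against 9.72, 10.36 and 10.22 (-4.98 ± 0.20, 31.5-fold). Each was high in all HT115 arrays only. CD44, the hyaluronan receptor, read 8.22, 7.70 and 8.43 against 12.68, 12.71 and 12.69 (-4.57 ± 0.18), and ALCAM differed by -2.16 and SMOC2 by -1.29.

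Other Wnt targets were higher in HCT15. APCDD1, a Wnt antagonist that Wnt induces, read 9.91, 8.44 and 11.21 in HCT15 and 7.15, 6.31 and 5.92 in HT115 (3.40 ± 0.61). The HCT15 arrays were higher without overlap but spread out, and the difference was 2.72 without the third HCT15 array and 4.10 without the second. In HCT15 WT it read 7.32, 8.39 and 6.65, which overlapped with HT115, and the difference with those arrays in place was not called (adjusted p = 0.123). TNFRSF19 (TROY) read 8.42, 8.79 and 8.54 against 6.06, 6.04 and 6.17 (2.49 ± 0.13). MSI1, the RNA-binding protein Musashi, read 8.21, 8.13 and 8.18 against 6.57, 6.23 and 5.64 (2.03 ± 0.21). EPHB3, an ephrin receptor of the crypt, differed by 1.29, and by 0.8 on its other probe set. The feedback genes AXIN2 (0.74), LEF1 (0.85), ZNRF3 (0.87) and NKD1 (0.91) had adjusted p-values under 0.05 but differed less than 2-fold, all higher in HCT15. SOX9 (12.08 and 11.92) and RNF43 (11.11 and 11.54) did not pass the test.

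HOX genes record a cell's place along the gut. Of 29 analysed, 4 were called higher in HCT15 and 2 higher in HT115 (20.7%, against 10.5% of all genes). The median difference was 0.23. HOXD9 read 8.60, 8.66 and 8.32 in HCT15 and 6.73, 6.82 and 6.28 in HT115 (1.92 ± 0.17), although its second probe set differed by 0.11. HOXB4 read 9.15, 8.57 and 9.14 against 7.11, 6.89 and 7.26 (1.87 ± 0.18), and HOXB3 differed by 1.77 and HOXD8 by 1.27. HOXB8, in the same HOXB cluster, went the other way at 8.75, 8.90 and 8.81 against 11.08, 11.16 and 10.83 (-2.20 ± 0.13), with -0.70 on its other probe set. HOXB5, HOXB6 and HOXB9 had means of 11.07, 11.05 and 11.61 in HCT15 and 11.34, 10.70 and 11.28 in HT115 and did not pass the test. HOXD13 differed by -1.09, fell just under 2-fold without the second HCT15 array, and differed by -0.80 in the mean of its probe sets and by 0.59 with the HCT15 WT arrays in place of Y330H.

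Of 34 epithelial junction genes measured, 8 were called higher in HT115 and 1 higher in HCT15 (26.5%, against 10.5% of all genes). The median difference was -0.19. The 1 was CDH1, E-cadherin, which seals epithelial cells to each other. It read 12.75, 12.75 and 12.80 in HCT15 and 10.48, 10.38 and 9.82 in HT115, a difference of 2.54 ± 0.18 (5.83-fold, adjusted p = 1.54e-05), and its other probe set differed by 3.93. CTNNA1, the alpha-catenin that ties cadherin to actin, lay on the other side, with means of 9.49 in HCT15 and 11.55 in HT115 (-2.06). Both lines kept CDH1 among their higher signals, and the groups did not overlap.

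GJA1, the gap junction protein connexin 43, read 2.67, 2.74 and 3.01 in HCT15 and 10.55, 10.67 and 10.48 in HT115 (-7.76 ± 0.13, 217-fold). DSC3, a desmosomal cadherin, read 3.22, 2.93 and 3.37 against 8.34, 9.18 and 9.04 (-5.69 ± 0.23). CLDN1, a tight junction claudin, read 4.41, 4.40 and 4.60 against 9.08, 9.26 and 9.28 (-4.74 ± 0.12). All 3 were high in HT115 alone. DSG3, the desmosomal partner of DSC3 and like it known from stratified epithelium, differed by -2.93, CLDN3 by -2.23, CLDN15 by -1.93 and the connexin GJB5 by -1.84. The general desmosome genes DSP (10.70 and 10.65), DSG2 (11.41 and 11.36) and JUP (11.06 and 11.23) in HCT15 and HT115 did not pass the test.

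Of 23 mesenchymal state genes, 2 were called higher in HCT15 and 5 higher in HT115 (30.4%, against 10.5% of all genes). The median difference was 0.05. TGFBI, a matrix protein induced by TGF-beta, read 5.78, 5.52 and 5.46 in HCT15 and 11.62, 11.42 and 11.76 in HT115 (-6.01 ± 0.14). GREM1, a BMP antagonist, read 3.33, 3.85 and 3.28 against 5.36, 6.47 and 6.71 (-2.69 ± 0.33). TPM2, a tropomyosin, read 12.38, 9.91 and 10.07 against 8.51, 7.92 and 7.93 (2.66 ± 0.57), a difference that was 1.87 without the first HCT15 array, and 1 of its 4 probe sets was past 2-fold. HT115 was higher in every array for TGFBI and GREM1, and HCT15 was for TPM2. VIM, the intermediate filament vimentin, and ZEB1, a repressor of E-cadherin, did not pass the test. VIM read 6.26, 5.98 and 6.22 against 6.05, 5.49 and 5.50 (0.48 ± 0.17, adjusted p = 0.0806), and ZEB1 read 5.17, 5.15 and 5.50 against 5.24, 5.40 and 5.03 (0.05 ± 0.15). S100A4, a calcium-binding protein of motile cells, differed by -1.7. It lost its call without the second (-1.18) or the third HCT15 array (adjusted p = 0.0862), and without the second (0.0561) or the third HT115 array (0.117). TWIST1, a mesenchymal transcription factor, differed by -1.03 and fell under 2-fold without the first HCT15 array (-0.91) or the first HT115 array (-0.89), and with array weights (-0.99).

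Integrin, laminin and matrix adhesion genes gave 5 calls among 27 (18.5%, against 10.5% of all genes). Of the calls, 2 were higher in HCT15 and 3 higher in HT115, and the median difference of the list was 0.00. ITGB8, which activates TGF-beta, read 5.75, 6.32 and 6.01 in HCT15 and 8.37, 8.66 and 8.64 in HT115 (-2.53 ± 0.17). ICAM1, the leukocyte adhesion ligand, read 9.72, 9.57 and 9.22 against 7.73, 7.47 and 7.77 (1.85 ± 0.16). Each gene separated the lines in every array. Among the chains of the main epithelial receptors ITGA3 differed by 1.16 and by 0.53 with HCT15 WT in place of Y330H, ITGA6 by -1.31 with -0.72 on its second probe set, ITGB1 by 0.21 and ITGB4 by -0.54. With treat 2 of the 5 calls were made. Among 15 keratins KRT20, given above, and KRT23 were called (13.3%), near the 10.5% of all genes. KRT23 read 5.78, 5.74 and 5.6 against 8.75, 7.11 and 6.73 (-1.82 ± 0.44). Its first HT115 array stood above the other 2, and the difference was -1.2 without it and not called without the third HCT15 array (adjusted p = 0.0571).

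**Figure D3:**
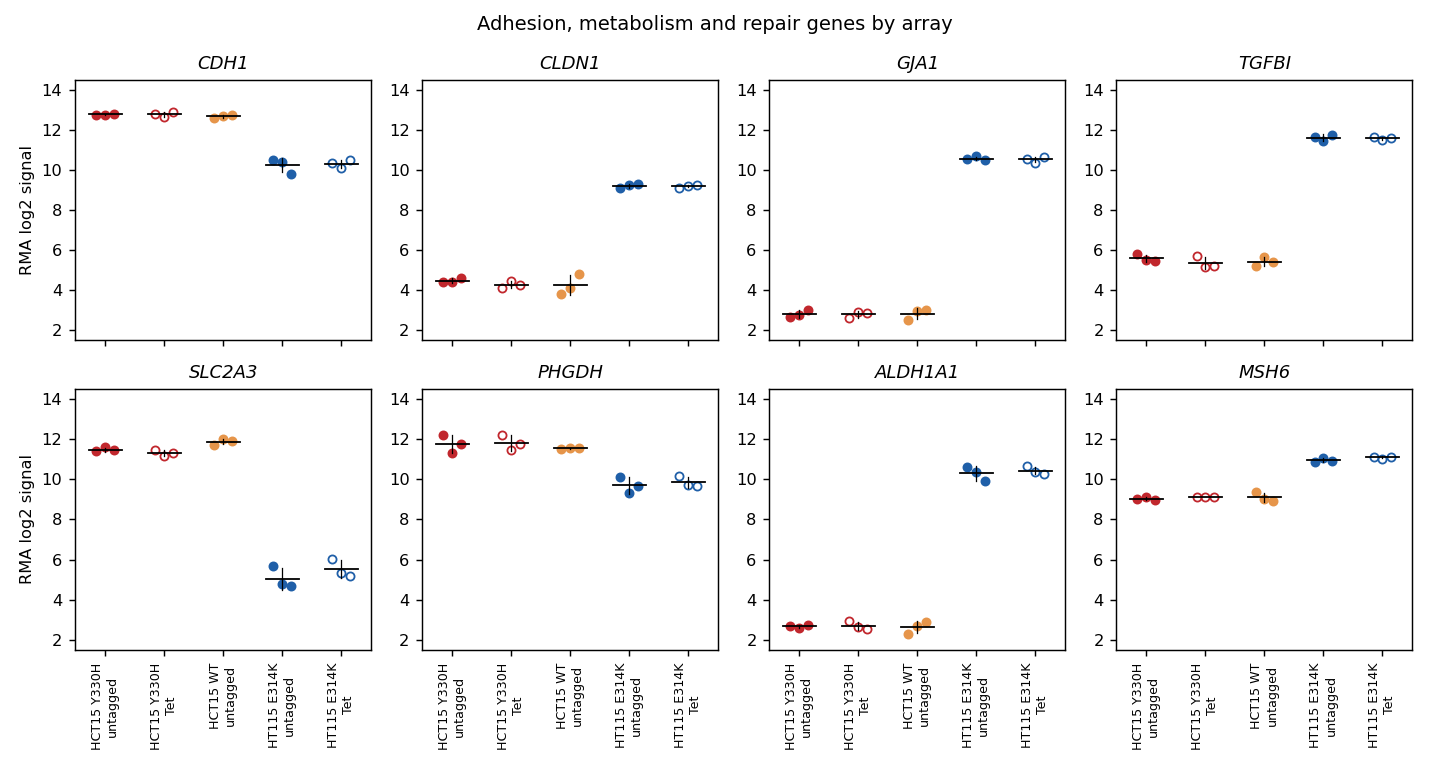
RMA log2 signal by array for 8 adhesion, metabolism and repair genes, drawn as in the plot of differentiation genes (red HCT15 Y330H, orange HCT15 WT, blue HT115 E314K, filled untagged, open Tet, black bars mean and SD of 3 arrays). CDH1, SLC2A3 and PHGDH are higher in all HCT15 groups, and CLDN1, GJA1, TGFBI, ALDH1A1 and MSH6 are higher in both HT115 groups.

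Of 35 glycolysis and energy genes, 3 were called higher in HCT15 and 5 higher in HT115 (22.9%, against 10.5% of all genes). The median difference was -0.06. GAPDH (13.52 and 13.58), PKM (12.59 and 12.66), LDHA (12.72 and 12.74) and ENO1 (12.5 and 12.46), enzymes of the main glycolytic path, did not pass the test. HK1, a hexokinase, read 9.16, 9.45 and 9.39 in HCT15 and 7.62, 7.83 and 8.42 in HT115 (1.38 ± 0.20). ENO2, the neuronal enolase, read 10.38, 10.24 and 10.32 against 8.84, 8.37 and 8.75 (1.66 ± 0.15). With SLC2A3 these were the HCT15 side. On the HT115 side PPARGC1A, a coactivator of mitochondrial biogenesis, read 4.65, 4.66 and 4.65 against 7.73, 8.25 and 8.70 (-3.57 ± 0.22), although its second probe set differed by -0.46. CKB, creatine kinase, read 8.65, 7.58 and 8.30 against 10.44, 10.45 and 10.83 (-2.40 ± 0.26). The aldolase ALDOC differed by -2.0, the gluconeogenic phosphatase FBP1 by -1.99 and CPT1A, the gate of mitochondrial fatty acid oxidation, by -1.15. None of these overlapped between the lines. FBP1 differed by -0.70 with HCT15 WT in place of Y330H, and CPT1A by -0.82 in the mean of its probe sets, both under 2-fold. With treat 5 of the 8 calls of this list were made.

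Of 33 amino acid, one-carbon and nucleotide genes, 6 were called higher in HCT15, where 4.98% of all genes were, and none higher in HT115, with a median difference of 0.21. PHGDH, the first enzyme of serine synthesis, read 12.21, 11.31 and 11.75 in HCT15 and 10.13, 9.31 and 9.67 in HT115 (2.05 ± 0.26, adjusted p = 0.00058). QPRT, of NAD synthesis, read 11.42, 10.41 and 11.42 against 8.74, 8.35 and 8.68 (2.49 ± 0.27). DPYD, which degrades uracil and fluorouracil, read 6.67, 6.72 and 6.69 against 4.04, 4.20 and 4.79 (2.35 ± 0.19). The HCT15 arrays were above all HT115 arrays for each. PSPH, the last enzyme of serine synthesis, differed by 1.81 on its brightest probe set, but its 3 probe sets ran from -0.55 to 1.81. ASNS, asparagine synthetase, differed by 1.21 (adjusted p = 0.0472). Of the 6 calls of this list, 5 were also made in the Tet arrays, and ASNS was not among them. PYCR1, of proline synthesis, differed by 1.06, which was 0.99 without the second HT115 array and 0.96 with HCT15 WT in place of Y330H. PSAT1 (0.70), MTHFD2 (0.81) and TYMS (0.73) had adjusted p-values under 0.05 without reaching 2-fold.

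Lipid and steroid genes gave 9 calls among 32 (28.1%, against 10.5% of all genes), 4 higher in HCT15 and 5 higher in HT115. The median difference was -0.04. HSD17B2, which inactivates estradiol and testosterone, read 4.0, 4.07 and 4.13 in HCT15 and 7.77, 8.20 and 9.10 in HT115 (-4.29 ± 0.29). PLIN2, a coat protein of lipid droplets, read 5.33, 5.26 and 5.03 against 8.97, 8.52 and 9.20 (-3.69 ± 0.18), with -0.12 on its other probe set. PTGS2, the inducible cyclooxygenase, read 3.51, 3.59 and 3.50 against 5.68, 5.69 and 6.04 (-2.27 ± 0.13). These 3 were higher in every HT115 array. In HCT15 WT, however, PTGS2 read 3.86, 3.86 and 5.88, the last within the HT115 range, and its difference with those arrays in place was -1.27 and not called (adjusted p = 0.075). PTGES, the prostaglandin E synthase downstream of it, went the other way at 10.08, 9.23 and 9.49 against 6.72, 6.41 and 6.75 (2.98 ± 0.22). The other probe set of PTGES differed by 0.82. SULT2B1, a cholesterol sulfotransferase, differed by 2.39 and the apolipoprotein gene APOC1 by 2.04. FASN (9.42 and 9.53) and SCD (13.12 and 13.10), enzymes of fatty acid synthesis, did not pass the test.

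Drug, aldehyde and glutathione genes differed in both directions. Of 44 measured, 6 were called higher in HCT15 and 10 higher in HT115 (36.4%, against 10.5% of all genes). The median difference was 0.11. ALDH1A1, a retinal dehydrogenase, read 2.66, 2.58 and 2.75 in HCT15 and 10.61, 10.37 and 9.91 in HT115 (-7.63 ± 0.18, 199-fold). GPX2, the gastrointestinal glutathione peroxidase, read 4.59, 4.74 and 4.64 against 11.60, 11.55 and 11.69 (-6.96 ± 0.11). HT115 was high and HCT15 low in each array of both. AKR1C3, a ketosteroid reductase, differed by -6.18, AKR1C2 by -3.73 but by 0.28 when probe sets that may match several transcripts were left out, and UGT1A6 by -4.04. AKR1C, UGT1A and GSTM genes are near copies of each other, so these values are uncertain. The P450 enzymes CYP3A5 (-3.43) and CYP2J2 (-2.92) were called higher in HT115 as well. On the HCT15 side GSTM3, a glutathione transferase, read 12.64, 12.06 and 12.35 against 9.13, 8.85 and 9.15 (3.30 ± 0.17). ALDH3A1 differed by 2.55, EPHX1 by 1.5, HMOX1 by 1.26, NQO1 by 1.11 and the drug efflux pump ABCB1 by 1.10. With HCT15 WT in place of Y330H, ALDH3A1 (0.87) and NQO1 (0.91) fell under 2-fold.

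Growth factor receptors and ligands gave 16 calls among 48 (33.3%, against 10.5% of all genes), 4 higher in HCT15 and 12 higher in HT115. The median difference was -0.08, and 5 calls were made when the test itself demanded more than 2-fold. FGFR4 read 7.05, 6.85 and 6.94 in HCT15 and 9.45, 9.68 and 9.94 in HT115 (-2.74 ± 0.15). TGFBR2, the receptor that binds TGF-beta, read 9.72, 9.33 and 9.54 against 12.09, 12.04 and 12.04 (-2.53 ± 0.13). JAG1, a NOTCH ligand, read 9.14, 9.72 and 9.66 against 11.89, 11.80 and 11.73 (-2.30 ± 0.17), with all 6 probe sets past 2-fold. HT115 was above HCT15 in every array of these genes, and BMP2 differed by -2.70. FGF2 read 7.20, 8.02 and 7.43 against 4.73, 4.56 and 5.10 (2.75 ± 0.23) and was higher in all HCT15 arrays. EGFR (-0.80), ERBB3 (-0.67) and MET (-0.60) had adjusted p-values under 0.05 with differences under 2-fold.

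Mismatch repair and polymerase genes held 1 call among 13 (7.69%), under the 10.5% of all genes. That gene, MSH6, a subunit of the mismatch recognition dimer, read 9.04, 9.10 and 8.96 in HCT15 and 10.86, 11.05 and 10.93 in HT115 (-1.91 ± 0.12, 3.77-fold, adjusted p = 6.51e-06). HCT15 is a mismatch repair deficient line known to carry MSH6 mutations. Its groups did not overlap, and its 4 probe sets ran from -2.47 to -0.26. MLH3 (0.88) and MSH3 (0.68) were higher in HCT15 at adjusted p-values under 0.05 and less than 2-fold.

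Antigen presentation genes gave 6 calls among 27 (22.2%, against 10.5% of all genes), 1 higher in HCT15 and 5 higher in HT115. CD74, the invariant chain of class II, read 6.17, 6.01 and 6.20 in HCT15 and 9.19, 8.56 and 9.46 in HT115 (-2.95 ± 0.21), with 1 of 3 probe sets past 2-fold. ULBP2, a ligand of the receptor NKG2D, read 7.82, 7.69 and 7.25 against 5.42, 5.24 and 5.65 (2.15 ± 0.18). B2M, the light chain of class I, had means of 12.23 and 11.94 (0.29 ± 0.14, adjusted p = 0.192), and its levels overlapped, from 12.10 to 12.39 in HCT15 and from 11.72 to 12.11 in HT115. Oncofetal and germline genes gave 8 calls among 24 (33.3%, against 10.5% of all genes), 3 higher in HCT15 and 5 higher in HT115. DDX43, a cancer-testis helicase, read 3.81, 3.79 and 4.01 against 9.89, 9.90 and 9.95 (-6.04 ± 0.12), PIWIL1 of the germline differed by -2.01, and TEX14 by 1.61. Of 8 neural and muscle markers 1 was called (12.5%), near the 10.5% of all genes. It was NEFM, a neurofilament chain, at 3.91, 4.20 and 4.20 in HCT15 and 7.13, 7.37 and 7.55 in HT115 (-3.25 ± 0.15), with 0.05 on its other probe set.

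**Figure D4:**
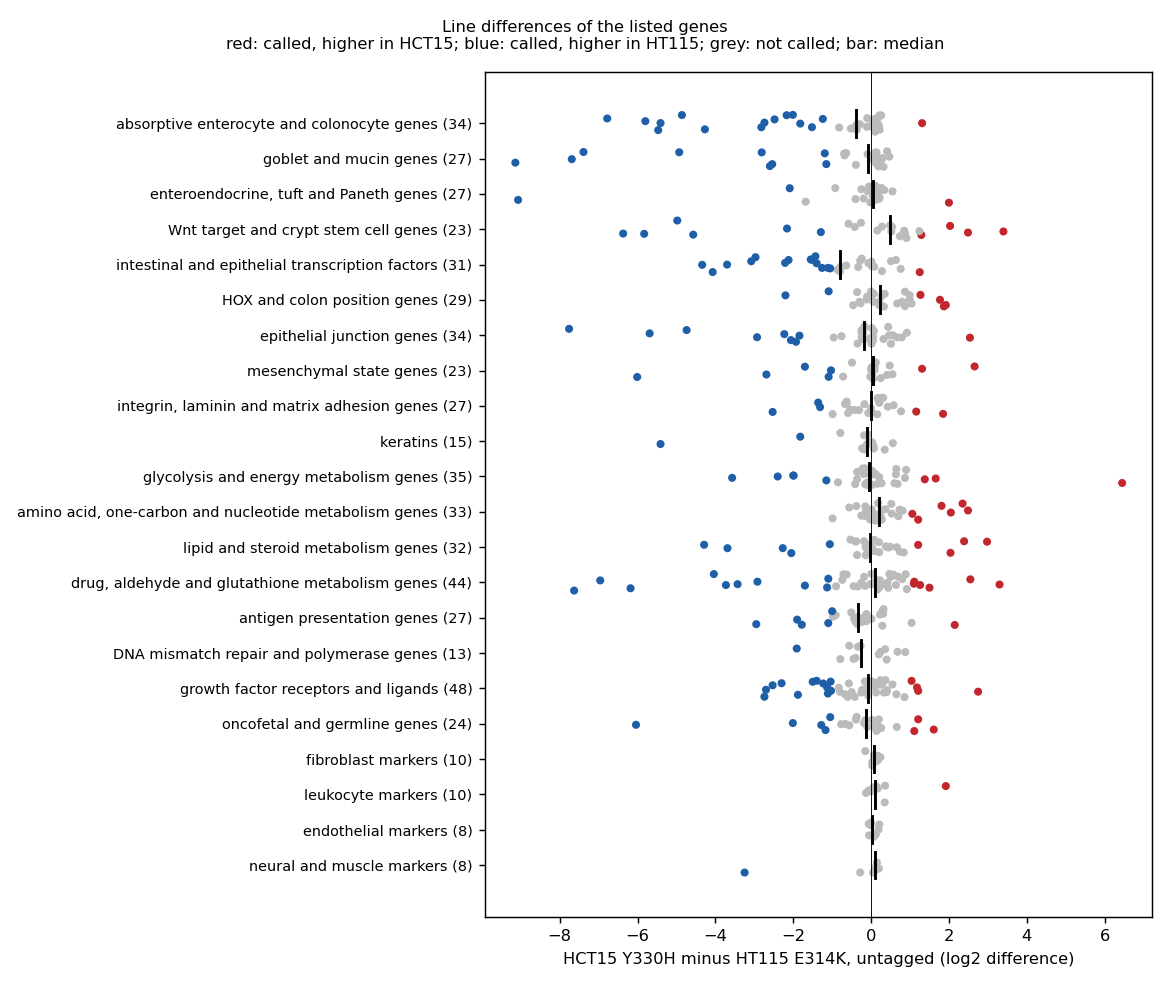
Difference between the lines (HCT15 Y330H minus HT115 E314K, untagged, log2) of each measured gene in 22 lists, with the number measured in brackets. Red and blue points are called genes higher in HCT15 or HT115, grey points are not called, and black bars are medians, which lie between -0.80 (transcription factors) and 0.49 (Wnt and stem cell genes).

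In the Tet arrays 26.4% of genes had an adjusted p under 0.05 between the lines. There 1963 genes were called (10.3%), 895 higher in HCT15 (4.71%) and 1068 higher in HT115 (5.62%). Called in both sets in the same direction were 1761 genes, which is 88.7% of the untagged calls and 89.7% of the Tet calls, and none was called in opposite directions. The other 224 untagged calls had the same sign in the Tet arrays. Of the 672 genes that differed at least 4-fold in untagged arrays, 671 were called in Tet arrays too. These arrays are not fully independent of the untagged ones. Deviations from the group means correlated across genes between the Tet and untagged arrays of the same number, at 0.770, 0.620 and 0.317 in HCT15 and at 0.594, 0.051 and 0.318 in HT115.

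CALB1 differed by -9.25 in Tet arrays, LGALS4 by -6.85, CDX1 by -4.27, LGR5 by -4.83, CDH1 by 2.46 and PHGDH by 1.96. These genes and SLC2A3 were picked in part for their calls in the Tet arrays, so their values are no separate check. SLC2A3 differed by 5.79, with Tet levels of 11.48, 11.15 and 11.32 in HCT15 and 6.05, 5.33 and 5.19 in HT115. CDX2, under 2-fold in untagged arrays, differed by -1.11 in Tet arrays and was called there. The interaction, which asks whether a line difference is another one under Tet, gave no gene at an adjusted p under 0.05 in limma, and 325 genes had an unadjusted p under 0.05. For SLC2A3 the change in the line difference was -0.66 ± 0.37.

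**Figure D5:**
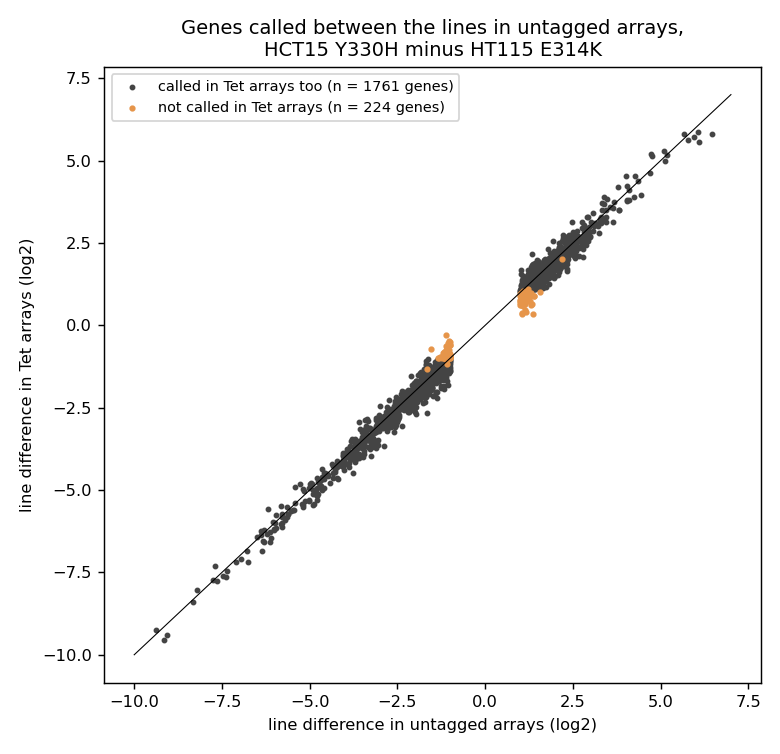
Line difference (HCT15 Y330H minus HT115 E314K, log2) in untagged arrays (horizontal) and Tet arrays (vertical) for the 1985 genes called in untagged arrays. Dark grey points (1761) were also called in Tet arrays, orange points (224) were not, and all lie on the same side of 0 in both, along the diagonal of equal differences.

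The HCT15 WT derivative was set beside the Y330H derivative. Its comparison with HT115 uses the same 3 HT115 arrays, so it is no independent test, and its values are given side by side. Of the 945 genes called higher in HCT15 Y330H, 891 (94.3%) also had every HCT15 WT array above every HT115 array, as 26.4% of all genes did. Of the 1040 higher in HT115, 1002 (96.3%) had every HCT15 WT array below, against 19.2% of all genes. SLC2A3 read 11.73, 12.01 and 11.92 in HCT15 WT, CDH1 read 12.61, 12.67 and 12.72, and UTRN read 10.41, 10.29 and 10.14. CDX1 read 6.07, 6.34 and 6.32, KRT20 read 4.27, 4.14 and 4.46, and LGR5 read 4.21, 4.44 and 4.78. All were on the HCT15 side of every HT115 array. MSH6 read 9.35, 9.02 and 8.93, near the Y330H arrays and below all HT115 arrays.

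The HCT15 derivatives also differed from each other. Between WT and Y330H 116 genes were called (0.611%), 56 higher in WT (0.295%) and 60 higher in Y330H (0.316%), among 0.869% with an adjusted p under 0.05, and 58 of the 1985 line calls were among them. That count rested on single arrays: it was 3 without the first WT array, 19 without the second and 245 without the third, and 18 without the third and 74 without the second Y330H array. CDH17, the liver-intestine cadherin, read 9.41, 7.96 and 9.59 in Y330H, 4.38, 4.69 and 6.92 in WT and 11.56, 11.58 and 11.27 in HT115. AGR2 read 5.13, 5.09 and 8.84 in WT, below its Y330H levels. The tetraspanin TSPAN8 read 12.01, 11.81 and 12.16 in Y330H, 4.90, 6.24 and 10.06 in WT and 13.23, 13.24 and 13.24 in HT115. The third WT array was nearest to Y330H for these 3 genes, and the HT115 arrays were the highest in each. CD44 read 10.21, 10.16 and 9.62 in WT, between Y330H and HT115.

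With the WT arrays in place of Y330H, 2270 of the 18991 genes were called, 1124 higher in HCT15 and 1146 higher in HT115. The comparison with Y330H gave 945 and 1040. The list counts changed little for enterocyte genes (1 higher in HCT15 and 14 higher in HT115, of 34), Wnt and stem cell genes (4 and 6 of 23) and amino acid genes (6 and 0 of 33). Goblet and mucin genes gave 0 and 11 of 27, transcription factors 1 and 12 of 31, junction genes 2 and 9 of 34, and keratins 0 and 4 of 15. Growth factor genes gave 6 and 7 of 48 in place of 4 and 12, and HOX genes 7 and 1 of 29 in place of 4 and 2.

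The calls were spread over all 22 autosomes, with a lean on a few. Among genes brighter than the median gene, the median difference was -0.222 on chromosome 3 (554 genes), -0.251 on chromosome 7 (487 genes), -0.241 on chromosome 12 (541 genes) and 0.282 on chromosome 4 (347 genes). On the other 18 autosomes it lay between 0.013 and 0.164. In the Tet arrays the same 4 medians were -0.240, -0.274, -0.267 and 0.217, and with HCT15 WT in place of Y330H they were -0.239, -0.259, -0.178 and 0.290. Between the HCT15 derivatives the medians of these chromosomes over all genes lay between 0.014 and 0.039. Of all genes 10.5% were called, 5.48% higher in HT115 and 4.98% higher in HCT15. On chromosome 7, 12.6% of 932 genes were called, 86 higher in HT115 and 31 higher in HCT15, with CFTR, MUC12, AGR2 and AGR3 among the 86. On chromosome 4, 15.1% of 793 genes were called, 52 higher in HT115, PROM1 and PF4 among them, and 68 higher in HCT15. Copy number was not measured here.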

How the data were processed

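The deposited table holds log2 signals per probe set of Affymetrix U133 Plus 2.0 arrays, which the authors made with RMA; per the submitters' processing notes the software was Affymetrix Power Tools. Versions are not given in the sources used here. RNA was amplified with a NuGEN kit before labelling, per the labels' protocols. No further normalization was applied.

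Of 54675 probe sets, 41097 carried 1 gene symbol in the annotation of the array, 11777 had no name here and 1801 carried several, and 41037 matched the RefSeq gene table (GRCh38.p14). Each gene took its brightest probe set over the 12 arrays with a mutant form. The 729 genes of chromosomes X and Y were left out, and genes of a list that are not among those measured were not analysed here. Lines were compared with limma 3.58.1 in R 4.3.3 (lmFit and eBayes, no trend), in separate fits for untagged and Tet arrays with 4 residual degrees of freedom, and the interaction in a fit of all 12. P-values were adjusted by Benjamini-Hochberg over all 18991 genes. Errors of differences are standard errors. The fits were tested on simulated data.

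Named were the 15 genes with the largest difference in each direction and up to 5 of each list in each direction. To be picked so, a gene had to be called in untagged and Tet arrays alike, in the same direction. Its untagged arrays also had to lie apart between the lines. Separation of the arrays and calls under Tet follow from this choice for these genes and are no added support. A fixed set of genes was named always, and further list members were named for their values. The members and the 22 lists were chosen with earlier results of these data known. Alternatives covered the arrays in the fit, array weights, the variance prior, centring, quantile normalization, dim genes, probe set choice, a fold threshold inside the test, the replicate block, leaving out each array, and HCT15 WT in place of Y330H. The list counts under each alternative were chosen after seeing the data.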

Additional observations from a re-analysis of the deposited data

How the results depend on the processing

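The count of genes called between the lines kept within 1.5 times of 1985 (untagged) and 1963 (Tet), and both directions stayed well filled, except under a pair of settings that test fewer genes or ask for more. With only genes brighter than the median gene the counts were 1198 and 1144, and with treat, which tests against 2-fold, 814 and 828, with 36.6% of the untagged ones higher in HCT15 against 47.6%, and 34.3% of the Tet ones against 45.6%. Leaving out 1 array gave 1921 to 2045 untagged and 1890 to 2043 Tet calls. With HCT15 WT in place of Y330H there were 2270 and 2312. The replicate numbers were not taken as pairs, since not every pair correlated above 0.1: same-numbered arrays of the lines correlated at 0.194, 0.094 and 0.046 in untagged arrays, 2 of 3 best with their own number, and at 0.202, 0.118 and 0.049 in Tet arrays, 3 of 3 best with their own, a hint from the data only. The replicate block gave 2004 untagged and 1982 Tet calls, 132 between HCT15 derivatives and 0 for the interaction, which also gave 0 under the other alternatives run. Calls between the HCT15 derivatives ranged from 3 to 245 when 1 array was left out and were 226 in a fit of all 18 arrays. Without probe sets that may match several transcripts, TGFB1 turned to -0.03, ZEB1 to -0.13 and AKR1C2 to 0.28. MAP3K21 turned to 0.10 without the first HCT15 array, 0.07 without the second HT115 array and 0.11 with HCT15 WT, and was -0.11 without the second HCT15 array. ZEB1 turned to -0.06 without the third HCT15 and -0.05 without the third HT115 array, and was 0.14 without the second HT115 array. With HCT15 WT, SCG5 turned to -0.85, FGFBP1 to -0.02, KLK6 to -0.12 and HOXD13 to 0.59. The cause of these changes was not tested. Of the 139 named genes, 36 lost their call with treat. With HCT15 WT, 10 lost it while keeping their sign, among them TDRD1 (0.27), PSMB8 (-0.82) and FGFR3 (-0.69). SCG5, FGFBP1, KLK6 and HOXD13, which changed sign with HCT15 WT, lost their call there too. Among lists, treat left 2 of 7 mesenchymal, 9 of 16 drug and aldehyde, 3 of 6 HOX, 2 of 5 integrin, 5 of 8 glycolysis, 1 of 2 keratin, 6 of 15 transcription factor, 5 of 16 growth factor, 2 of 6 antigen presentation and 3 of 8 oncofetal calls.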
